A study of Homo sapiens with 9 samples.

Results

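The data are the signals of SK-N-AS cells at the start of a time course: the 3 arrays labelled 0 h, of 9 arrays in all, chosen by that time label. Every probe set that is not a control was read, 54613 of 54675, and those that name 1 gene gave values for 19775 genes. SK-N-AS is an established human neuroblastoma line, which grows as an adherent culture and is known for lacking MYCN amplification. The study followed these cells at 0, 24 and 48 h in 3 series with 1 Affymetrix array per series and time. One series received RE-EX1, an expression construct for full-length NRSF; another received HZ4, a construct for a truncated NRSF; the third was untreated. All 3 series share the line and the same serum-containing medium. The labels call the 0 h arrays of both construct series baseline controls and do not say whether any construct RNA was already present, nor which promoter drives the constructs or whether the cells are a clone. The 3 arrays at 0 h are treated here as 3 readings of the starting state, 1 per series. Nothing says that they came from separate cultures, so their spread may be technical.

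Neuroblastoma arises from the sympathoadrenal lineage of the neural crest. Its cell lines are described between an adrenergic state, held by factors such as HAND2 and GATA3 and marked by catecholamine synthesis, and a mesenchymal state, held by factors such as PRRX1, TWIST and SNAI and marked by matrix production and migration. NRSF, the product of REST, is a zinc-finger repressor that binds RE1 elements and keeps neuronal genes silent outside neurons, so the neuronal genes of the starting state are the background against which its forms were added.

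A signal is the scaled linear brightness of a probe set, and levels are log2 signals with a floor at 3.05. For each array a background limit was taken from 100 olfactory and taste receptor genes, which most cells keep silent: the 95th percentile of their signals, which was 58.2 on the full-length series array, 37.5 on the truncated series array and 45.1 on the untreated array. A gene was called above background when its brightest probe set passed the limit of its array. By this rule 48.8% of all genes (9656) were above background on 3 of 3 arrays, 38.2% (7563) on none and 12.9% (2556) on 1 or 2. Signals of 3 arrays are always given in the order full-length series, truncated series, untreated, and a level ± its SD is over these 3 arrays (n = 3). In bulk RNA, fewer cells that express a gene and less RNA of it per cell cannot be told apart. Probes differ in affinity, so a rank or percentile among genes orders signals, not amounts of RNA.

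**Figure D1:**
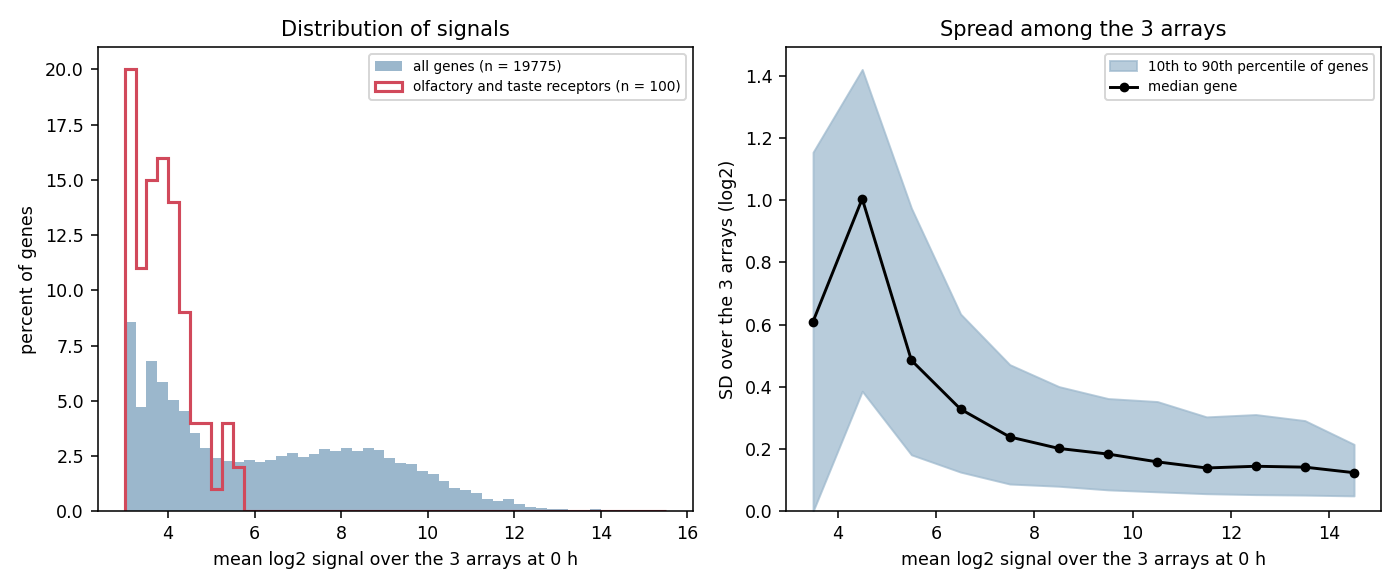
Left, percent of genes by mean log2 signal over the 3 arrays at 0 h, for all 19775 genes (filled) and the 100 olfactory and taste receptor genes that set the background limit (line). Right, SD over the 3 arrays (log2) against mean log2 signal, with the median gene (points) and the 10th to 90th percentile of genes (band); the spread is widest for dim genes and narrowest for bright ones.

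Of the 100 genes of highest mean signal, 41 carry symbols of cytosolic ribosomal proteins, 5 are genes of the mitochondrial genome and 54 are others. The top 25 hold the mitochondrial genes COX2, COX1, ND4, ND2 and ATP6, the translation factor EEF1A1, the growth-related protein gene TPT1, the isomerase gene PPIA and GAPDH of glycolysis. COX2 had signals of 38518, 30226 and 36881, on a probe set marked for possible cross-hybridization, so its level is uncertain. HUWE1, a ubiquitin ligase gene, also stands in the top 25 (26958, 22757 and 24152) on a probe set with that mark, and only 3 of 5 of its probe sets were above background, so this rank is uncertain too. The one tissue-restricted gene among the top 25 was RGS5, an inhibitor of G protein signalling best known from pericytes. Its signals were 26166, 20963 and 24915, and 4 of 6 of its probe sets were above background on all 3 arrays. The same 100 brightest genes shared 94 to 98 members with the 100 brightest of each 0 h array and 90 to 94 with those of the later arrays.

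Groups of genes with a known role separated widely in signal. The median level was 5.87 over all genes. It was 8.84 for contractile and stress fibre genes, 8.25 for the extracellular matrix and 8.21 for mesenchymal and neural crest regulators. It was 7.08 for sympathoadrenal regulators, 4.98 for catecholamine synthesis and transport and 4.10 for synaptic vesicle, channel and transmitter receptor genes. Markers of endothelium, muscle, blood, liver and gut, and the central nervous system had medians between 3.65 and 3.95, beside 3.80 in the receptor genes that set the background.

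**Figure D2:**
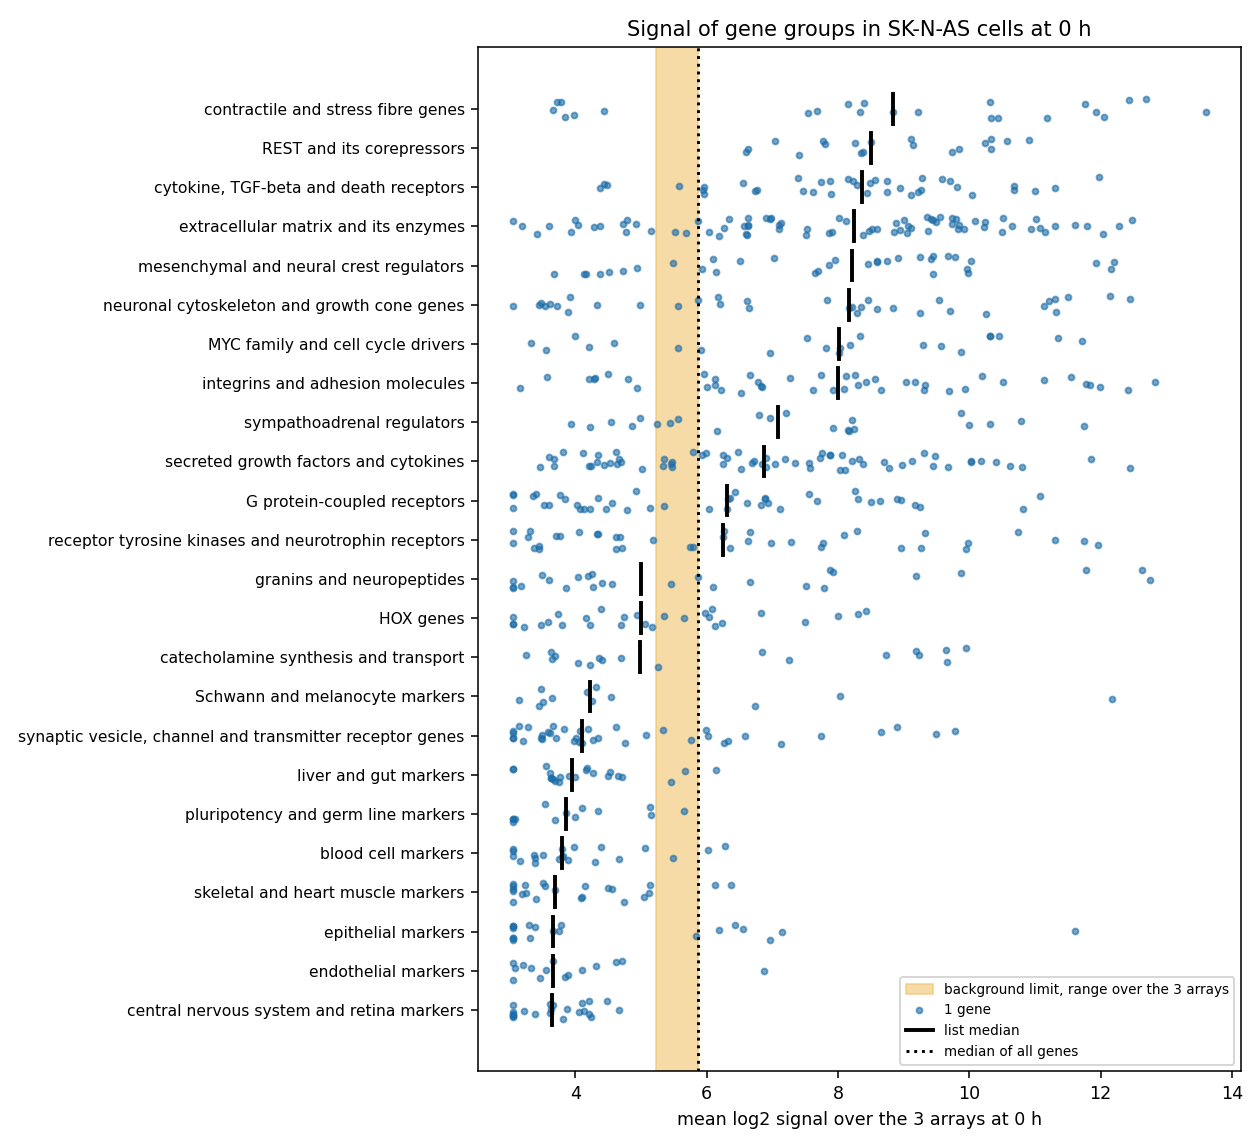
Mean log2 signal over the 3 arrays at 0 h of each gene (points) in 24 gene groups, ordered by their median (bar), with the range of the background limit (band) and the median of all genes (dotted line, 5.87). Contractile, matrix and mesenchymal groups lie to the right of that line, and the medians of markers of other lineages lie below the background band.

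Sympathoadrenal regulators were partly expressed. Of 22 measured, 14 (63.6%) were above background on all 3 arrays, 4 on 1 or 2 and 4 (18.2%) on none. Over all genes, 48.8% were above it on all 3 arrays and 38.2% on none. GATA3, a zinc-finger factor of sympathetic neurons, had signals of 1861, 1656 and 1803, a level of 10.79 ± 0.09 at percentile 95.5, and 3 of 3 of its probe sets were above background. SOX4, an SRY-related factor of immature neurons, had signals of 3864, 3524 and 2997 (11.75 ± 0.19, percentile 98.2), and its relative SOX11 had 1573, 1163 and 1132 (10.32 ± 0.26, percentile 93.4). The T-box repressors TBX3 and TBX2 had levels of 10.00 ± 0.24 and 9.87 ± 0.20. With each gene's probe sets averaged, the levels were 8.51 for GATA3, 7.38 for SOX4, 9.53 for SOX11, 6.83 for TBX3 and 7.76 for TBX2. The SDs of these 5 regulators ran from 0.09 to 0.26, near the median SD of 0.21 of all genes above background.

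Other regulators of this lineage were dimmer or less even. GATA2 had signals of 196, 328 and 427 and ISL1, a LIM homeodomain factor, 274, 194 and 485; the untreated array was the highest for both. EYA1 (8.16 ± 0.30), KLF13 (8.15 ± 0.12), KLF7 (7.93 ± 0.16) and HAND1 (7.21 ± 0.29) were above background throughout. PHOX2A, a homeodomain factor of noradrenergic neurons, had signals of 102, 131 and 146 (6.96 ± 0.27, percentile 60.5). TFAP2B, which drives noradrenergic differentiation, had 59.5, 146 and 159.7, with the full-length series array just past its limit. HAND2, a basic helix-loop-helix factor of the same circuit, had 50.6, 38.2 and 28.3, above background only on the truncated series array and by a narrow margin. LMO1 was above on 2 arrays, INSM2 on 1, and INSM1, LMO3, DACH1 and SIX3 on none.

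The mesenchymal and neural crest regulators had a higher median level. Of 34 measured, 25 (73.5%) were above background on all 3 arrays, 2 on 2 of 3 and 7 (20.6%) on none. The shares of all genes were 48.8% on all 3 arrays and 38.2% on none. PRRX1, a paired-related homeobox factor that marks the mesenchymal state, had signals of 4442, 4345 and 4971, a level of 12.16 ± 0.10 at percentile 98.9, with 3 of 3 probe sets above background. The E protein gene TCF4 had 4377, 4928 and 4802 (12.20 ± 0.09), on 8 of 8 probe sets, and TEAD1, the DNA-binding partner of YAP, had 3992, 3436 and 4375 (11.93 ± 0.18). Both coactivators that bind TEAD factors were also above background, WWTR1 at 9.96 ± 0.08 and YAP1 at 9.44 ± 0.14. TWIST1, a helix-loop-helix factor of mesoderm and crest, had 1106, 918 and 1006, and TWIST2 379, 478 and 432. Of the zinc-finger repressors of epithelial genes, ZEB1 stood at 9.79 ± 0.12 and SNAI2 at 9.24 ± 0.26, while SNAI1 (6.15 ± 0.24) and ZEB2 (6.10 ± 0.48) stood near the middle of all genes.

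Among the other crest and bone factors, RUNX2 had a level of 9.68 ± 0.26, but on only 1 of 6 of its probe sets. MSX1 stood at 9.42 ± 0.33 and SOX9 at 8.92 ± 0.32. Of the AP-1 subunits, FOSL2 (8.46 ± 0.04) and FOSL1 (7.87 ± 0.20) had SDs of at most 0.20. JUN had signals of 965, 818 and 438, and its untreated array was the lowest; the probe set carries the mark for possible cross-hybridization. DLX1, DLX2, MSX2, PAX3, MEOX1, MEOX2 and TFAP2A were at background on all 3 arrays, among them the early neural crest factors PAX3 and TFAP2A. MEF2D had 139, 77.3 and 3.01 and was thus above background on 2 arrays and at the floor on the untreated one.

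**Figure D3:**
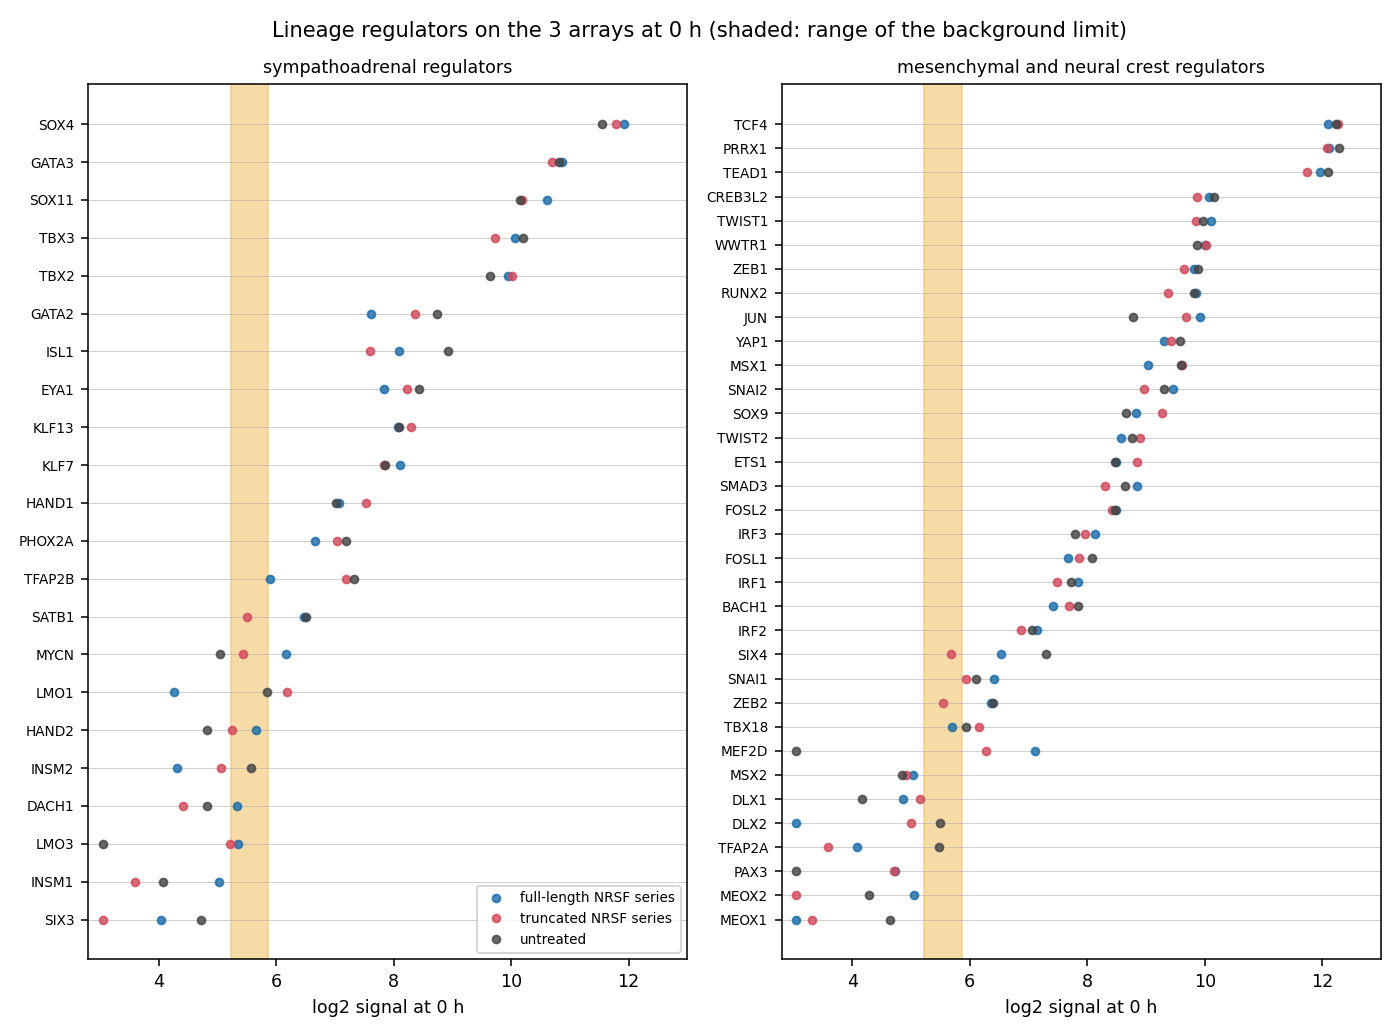
Log2 signal of 22 sympathoadrenal (left) and 34 mesenchymal and neural crest (right) regulators on each of the 3 arrays at 0 h (colours), with the range of the background limit shaded. The 3 points of the bright regulators lie close together, and wide gaps, such as that of MEF2D, occur at or near the shaded range.

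Of the MYC family, MYCN had 72.1, 43.5 and 33.1, above background on 2 of 3 arrays by a small margin, and 0 of 10 of its probe sets were above on all 3. MYC, its paralogue, had 258, 357 and 361 (8.33 ± 0.28, percentile 75.3). Of 22 MYC family and cell cycle genes measured, 15 (68.2%) were above background on all 3 arrays, beside 48.8% of all genes. CDK4 (11.72 ± 0.13) and CDK6 (11.36 ± 0.24), the kinases that D-type cyclins switch on, were above percentile 90. Of those cyclins CCND3 (10.31 ± 0.18) and CCND1 (9.29 ± 0.07) were above background and CCND2 was not. The MYC partner MAX stood at 10.45 ± 0.15, the p53 inhibitor MDM4 at 10.32 ± 0.16 and RB1 at 9.56 ± 0.24. The telomerase gene TERT, the RNA-binding protein gene LIN28B and the MYC family member MYCL were at background, and CDKN2A was above it on 2 arrays.

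Receptor tyrosine kinases were split between bright and silent genes. Of 39 measured, 20 (51.3%) were above background on all 3 arrays and 15 (38.5%) on none, near the 48.8% and 38.2% of all genes. EGFR, the receptor for epidermal growth factor, had signals of 3300.3, 4263 and 4488, a level of 11.96 ± 0.24 at percentile 98.6, with 3 of 9 probe sets above background. DDR2, a receptor for fibrillar collagen, had 2964, 3716 and 3706 (11.75 ± 0.19), on 4 of 4 probe sets. PDGFRA, which marks mesenchymal progenitors, had 2763, 2341 and 2481 (11.30 ± 0.12), and AXL, the GAS6 receptor, 1746, 1366 and 2125 (10.75 ± 0.32). With each gene's probe sets averaged, the levels were 6.61 for EGFR, 9.74 for DDR2, 6.19 for PDGFRA and 7.67 for AXL. RET, the receptor for glial cell line-derived neurotrophic factors, had 1162, 1149.6 and 727; its level of 9.95 ± 0.39 was lowest on the untreated array. IGF1R stood at 9.98 ± 0.18, MET at 8.95 ± 0.47, PDGFRB at 8.09 ± 0.20 and FGFR1 at 7.74 ± 0.21.

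The RET co-receptor GFRA2 was above background (7.77 ± 0.11), while its paralogues GFRA1 and GFRA3 were not. ALK, the kinase most often mutated in familial neuroblastoma, had signals of 25.8, 3.87 and 21.7, all below the limits. KIT, ERBB3, ERBB4, KDR and the neurotrophin receptor NTRK3 were also at background. NTRK2 was above it on 1 array and NGFR, the low-affinity neurotrophin receptor, on 2 (44, 61.5 and 56.3).

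Of 43 G protein-coupled receptors, 22 (51.2%) were above background throughout and 15 (34.9%) on none, near the 48.8% and 38.2% of all genes. ADGRL2, an adhesion receptor that binds teneurins, had signals of 1971, 2088 and 2441 (11.08 ± 0.16) and BDKRB1, the inducible bradykinin receptor, 1851, 2048 and 1569.7 (10.82 ± 0.19). BDKRB2, its constitutive relative, had 379.8, 698 and 468, with the truncated series array the highest. The Frizzled receptors for WNT proteins, FZD7 (9.26 ± 0.17), FZD6 (8.90 ± 0.11), FZD1 (8.31 ± 0.06) and FZD2 (7.56 ± 0.15), were above background. So were the sphingosine phosphate receptor S1PR3 (9.17 ± 0.26) and the serotonin receptor HTR2B (8.64 ± 0.18). The 15 at background include ADRA2A, ADRA1B, ADRB1, SSTR1, SSTR2, NPY1R, CHRM2, CHRM3 and ADCYAP1R1. CXCR4, the CXCL12 receptor, had 69.4, 48.6 and 7.51, above background on 2 arrays and at the floor on the untreated one.

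Cytokine, TGF-beta and death receptors were the receptor group most often on. Of 38 measured, 32 (84.2%) were above background on all 3 arrays and the other 6 on 1 or 2. The share of all genes on all 3 arrays was 48.8%. IL6ST, the shared signalling chain of the IL6 family, had signals of 4388, 3522 and 4172 (11.97 ± 0.17). Its partner chains OSMR (10.67 ± 0.37) and LIFR (9.28 ± 0.57) were above background, and IL6R, which confers IL6 binding, stood at 6.56 ± 0.25. IL13RA2, the decoy receptor for IL13, had 2165, 2570.1 and 2954 (11.31 ± 0.22). Both TGF-beta receptor kinases were on, TGFBR1 at 8.49 ± 0.26 and TGFBR2 at 8.15 ± 0.41, with the betaglycan gene TGFBR3 at 9.71 ± 0.28. Of the TRAIL receptors TNFRSF10B, which carries a death domain, stood at 10.04 ± 0.22, while TNFRSF10A was above background on 2 arrays and the decoy TNFRSF10D on 1. The interferon gamma receptor chains IFNGR1 (8.95 ± 0.13) and IFNGR2 (10.68 ± 0.10) were both above background.

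Of 44 integrins and adhesion molecules, 33 (75.0%) were above background on all 3 arrays and 7 (15.9%) on none. These shares were 48.8% and 38.2% over all genes. ITGB1, the beta chain of most matrix integrins, had 8572, 6207 and 7167 (12.82 ± 0.23, percentile 99.4), with 3 of 7 probe sets above background. CD44, the hyaluronan receptor, had 4275, 4008 and 3953 (11.99 ± 0.06) and CDH11, the mesenchymal cadherin, 2132, 2264 and 2358 (11.14 ± 0.07). ITGAV stood at 11.54 ± 0.08 and CDH2, the neural cadherin, at 9.69 ± 0.19. NCAM1, the neural adhesion molecule commonly used to mark neuroblastoma cells, had 52.4, 63.5 and 79.6: it was above background on 2 arrays, below it on the full-length series array, and 0 of 7 of its probe sets were above on all 3. L1CAM stood at 7.61 ± 0.15, and CHL1, NRCAM and NCAM2 of the neural immunoglobulin family were at background.

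The secreted factors included several bright genes. Of 66 measured, 44 (66.7%) were above background on all 3 arrays and 14 (21.2%) on none, beside 48.8% and 38.2% of all genes. CCL2, a chemokine that attracts monocytes, had signals of 5068, 7574 and 4499 (12.44 ± 0.39, percentile 99.2), with the truncated series array the highest. MIF, a cytokine that many cells secrete, had 3913, 3672 and 3539.8 (11.86 ± 0.07). VEGFA of blood vessel growth stood at 10.62 ± 0.13 on 4 of 4 probe sets, and PTN, the pleiotrophin gene, at 10.40 ± 0.10. HGF, the ligand of MET, had 1057, 930.3 and 1156 (10.03 ± 0.16) on 5 of 5 probe sets, so ligand and receptor were both above background on all 3 arrays. The WNT inhibitor DKK1 had 958, 697 and 1690.5, over 1 log2 unit apart between the truncated series and untreated arrays.

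The insulin-like growth factor binding proteins IGFBP4 (10.80 ± 0.38), IGFBP2 (9.67 ± 0.38), IGFBP7 (8.98 ± 0.41) and IGFBP3 (6.25 ± 0.26) were above background. TGFB1 stood at 8.70 ± 0.32 and TGFB2 was at background. CXCL12 had 333, 541 and 203 (SD 0.71 log2), with the truncated series array the highest, and CXCL8 had 326, 174 and 318. PDGFA, PDGFB, BDNF, IGF1, FGF7, BMP4 and CXCL1 were at background, although the receptors PDGFRA and IGF1R were above it. Of the other PDGF genes, PDGFC was above background (9.48 ± 0.16) and PDGFD was not.

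Granins and neuropeptides fill dense-core vesicles. Of 26 measured, 10 (38.5%) were above background on all 3 arrays and 10 (38.5%) on none, beside 48.8% and 38.2% of all genes. CRH, the corticotropin-releasing hormone gene, had signals of 7456, 8525 and 4074 (12.64 ± 0.57, percentile 99.3), on 2 of 2 probe sets; the untreated array was the lowest and lay outside the range of the other 2. PAM, the enzyme that amidates peptides, had 6407, 6832 and 7515 (12.75 ± 0.12), and CPE, which trims them, 617, 689 and 471 (9.19 ± 0.28). Of the granins SCG2 had 670.3, 959 and 1277 (9.87 ± 0.47) and VGF 196, 207 and 323 (7.88 ± 0.39). CHGA, the chromogranin most used as a neuroendocrine marker, had 57.6, 88.7 and 39.2 and was above background on the truncated series array only, and CHGB and SCG3 were at background.

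Further peptide genes were above background. NPY had 139, 287 and 357, VIP 109.8, 224 and 439 and GAL 172, 193 and 180.5. NPY and VIP were lowest on the full-length series array and highest on the untreated one, while the GAL readings lay close together. The preprohormone genes POMC, SST, NTS, GRP and TAC1 were at background.

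The extracellular matrix group was large and mostly on. Of 78 measured, 58 (74.4%) were above background on all 3 arrays, 9 on 1 or 2 and 11 (14.1%) on none. The shares of all genes were 48.8% on all 3 arrays and 38.2% on none. Among the matrix genes, 19 (24.4%) were above percentile 90, where 10.0% of all genes lie. TIMP1, an inhibitor of matrix metalloproteinases, had 5307, 6405 and 5487 (12.48 ± 0.14), and SPARC, which binds collagen, 6545, 3543 and 5384 (12.29 ± 0.45). COL3A1, a fibrillar collagen chain, had 2797, 3359 and 4697 (11.79 ± 0.38) on 4 of 5 probe sets. The proteoglycan genes LUM and DCN, both of which organise collagen fibrils, stood at 11.62 ± 0.18 and 9.85 ± 0.21. FN1, the fibronectin gene, stood at 10.22 ± 0.18, LAMC1 of basement membrane at 11.01 ± 0.20, and the chains of collagen VI at 10.94 ± 0.16 (COL6A2), 9.83 ± 0.16 (COL6A3) and 9.74 ± 0.29 (COL6A1).

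The chains of collagen I were unlike. COL1A1 had signals of 5482, 3161 and 4346 (12.04 ± 0.40) on its brightest probe set and 547, 1188 and 1545 on the next, and 3 of 5 of its probe sets were above background. COL1A2, whose product joins that of COL1A1 in the usual collagen I trimer, had 20, 3.15 and 44.4 on the brightest of its probe sets, and 0 of 3 were above background. ELN, FBLN5, FBN2, LAMA4 and COL11A1 were also at background. Of the matrix proteases, MMP2 had 2659, 2188 and 2791 (11.31 ± 0.19) on 1 of 3 probe sets, PLAU and PLAT of the plasminogen system stood at 9.92 ± 0.29 and 9.80 ± 0.45, and MMP9 and MMP1 at 6.62 ± 0.26 and 7.10 ± 0.44.

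Of 23 contractile and stress fibre genes measured, 17 (73.9%) were above background on all 3 arrays, beside 48.8% of all genes. Above percentile 90, where 10.0% of all genes lie, were 10 (43.5%). VIM, the intermediate filament gene of mesenchymal cells, had signals of 11384, 11991 and 14403 (13.61 ± 0.18), TPM1 6885, 5959 and 7027 (12.69 ± 0.13) and CALD1 3904, 3529.8 and 4316 (11.93 ± 0.15). ACTA2, the smooth muscle actin gene, was above background at 7.54 ± 0.08. Of the other genes known from smooth muscle, CNN1, MYL9, MYH11, LMOD1 and ACTG2 were at background, and TAGLN had 25.1, 48.3 and 2.36, above it on the truncated series array only. NES, an intermediate filament gene of neural progenitors, stood at 10.43 ± 0.12.

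Of 18 catecholamine synthesis and transport genes measured, 8 (44.4%) were above background on all 3 arrays and 7 (38.9%) on none. These shares are near the 48.8% and 38.2% of all genes. TH, the rate-limiting enzyme of catecholamine synthesis, had signals of 13.5, 14.6 and 43.4, and DBH, which makes noradrenaline, 4.74, 16.3 and 33.5; both were below the limit on 3 of 3 arrays. PNMT, the vesicular transporter gene SLC18A1 and MAOB were at background too, SLC18A2 was above it on 1 array and the noradrenaline transporter gene SLC6A2 on 1. DDC, the decarboxylase between TH and DBH, had 275, 419.5 and 667 (8.73 ± 0.64), and MAOA, which degrades the amines, 831, 929 and 1244 (9.95 ± 0.30). GCH1 (9.18 ± 0.24), PTS (9.24 ± 0.28) and QDPR (9.67 ± 0.15), which make and recycle the cofactor of TH, were all above background. The nicotinic receptor subunit genes of ganglia, CHRNA3 (6.84 ± 0.17) and CHRNA5 (7.26 ± 0.33), were on.

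Neuronal cytoskeleton genes were mostly above background and synaptic genes mostly were not. Of 35 cytoskeleton and growth cone genes, 23 (65.7%) were above background on all 3 arrays and 7 on none. MAP1B, a microtubule-associated protein gene of growing axons, had 5109.9, 5268 and 6505 (12.45 ± 0.19), and the neuronal tubulin gene TUBB3 2548, 2614 and 2534 (11.32 ± 0.02), on a probe set with the cross-hybridization mark. The neurofilament genes NEFL and NEFM stood at 11.13 ± 0.26 and 10.26 ± 0.29 and the peripheral nerve filament PRPH at 8.46 ± 0.06, while NEFH was at background. DCX, ELAVL3, CRMP1 and STMN4 were at background, and STMN2 (37.6, 41 and 68.6) was above it on 2 arrays. Of 39 synaptic vesicle, channel and transmitter receptor genes, 11 (28.2%) were above background on all 3 arrays and 25 (64.1%) on none. The members above background include the potassium channel KCNH2 (9.78 ± 0.26), the calcium channel subunit CACNA2D1 (9.49 ± 0.25), the vesicle proteins SV2A (8.90 ± 0.17) and SYT1 (8.66 ± 0.12) and the fusion protein SNAP25 (7.75 ± 0.16).

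REST and the genes of its corepressors were above background. All 19 measured members were above background on 3 of 3 arrays, beside 48.8% of all genes. REST had signals of 171, 162 and 177 (7.41 ± 0.06, percentile 65), with 1 of 3 of its probe sets above background, and the 3 arrays differed by an SD of 0.06. The construct arrays were thus not brighter than the untreated one at 0 h on this probe set. Whether it can read the RNA of either construct is not known here, so the presence of construct RNA at 0 h was not tested. The corepressor genes RCOR1 (9.14 ± 0.08) and SIN3A (7.80 ± 0.06), which bind opposite ends of NRSF, the demethylase KDM1A (9.74 ± 0.14) and the deacetylases HDAC1 (10.33 ± 0.25) and HDAC2 (9.84 ± 0.22) were all on.

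The RE1 element that NRSF binds is long and made of a left and a right part, and it was searched in the promoter windows of the RefSeq table (GRCh38.p14, 35116 windows, both strands). Its left part, TTCAGCACC, occurred in 132 windows (0.376%), its right part in 91 (0.259%), and the full form, both parts with a spacer, in 2 windows (0.0057%). Only exact matches to a fixed spelling of each part were counted, so windows with a near match are not in these counts. Both genes with an exact match to the full form were measured and were above background on none of the arrays. One is GRIA2, an AMPA receptor subunit gene (4.75, 1.52 and 20.6), which carries it on the reverse strand. SYN1, a synaptic vesicle gene (47.2, 8.27 and 12.1), carries the left part. The windows are shown because GRIA2, at background, matches the full form exactly and SYN1, also at background, matches only its left part exactly. In SYN1 the left part is followed, after the same spacing, by letters that differ from the searched right part in a single position. The search thus does not show that SYN1 lacks the full element. Capitals mark the exactly matched letters. GRIA2 is at chr4:157220369-157220428 on the plus strand, 250 to 191 bases before the start, and SYN1 at chrX:47620048-47620107 on the minus strand, likewise 250 to 191 bases before the start.
GRIA2: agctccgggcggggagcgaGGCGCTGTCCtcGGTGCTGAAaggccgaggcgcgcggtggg
SYN1: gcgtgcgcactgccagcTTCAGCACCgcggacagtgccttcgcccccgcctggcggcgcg
Of the genes measured that have a window, 31.9% of the 69 with the left part and 52.4% of the 63 with the right part were above background on all 3 arrays, beside 52.4% of all 15384. VGF, whose window holds the right part on the reverse strand, was on, as given above. A match is a description of letters and was not tested for binding.

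One pigment cell gene was very bright without most others of its kind. TYRP1, an enzyme of melanosomes, had signals of 4029.8, 3908 and 6258 (12.17 ± 0.38, percentile 99), and all 3 arrays were far above the limits, with the untreated array the highest. MITF, the master regulator of melanocytes, had 86.1, 123 and 114 (6.73 ± 0.27) and was above background on 3 of 3. TYR, the first enzyme of melanin synthesis, had 10.3, 55.7 and 13.8, above background on 1 array, and PMEL, MLANA and SOX10 were at background on all 3. Of 12 Schwann and melanocyte markers measured, 3 were above background on all 3 arrays (TYRP1, MBP at 8.04 ± 0.14 and MITF) and 8 on none, among them the Schwann cell genes S100B, PMP2 and CDH19 and the crest factor FOXD3.

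The letters TCATGTG, the core of the M-box that MITF binds, occur in the promoters of both TYRP1 and TYR. They are shown to set the bright gene beside the dim one; capitals mark the core, on the given strand, 145 bases before the start in TYRP1 and 105 in TYR. The windows run from 190 to 91 bases before the start (RefSeq, GRCh38.p14, plus strand), at chr9:12693195-12693294 for TYRP1 and chr11:89177685-89177784 for TYR.
TYRP1: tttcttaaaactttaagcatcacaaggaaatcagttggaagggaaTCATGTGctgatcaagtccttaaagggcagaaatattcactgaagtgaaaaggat
TYR: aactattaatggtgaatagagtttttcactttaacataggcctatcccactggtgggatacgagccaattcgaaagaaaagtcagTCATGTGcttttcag
The core occurred in 1026 of 35116 windows (2.92%) on either strand. Of the 465 measured genes that hold it, 200 were above background on all 3 arrays and 199 on none; 52.4% of all genes with a window were above it on all 3. The core thus stands in the windows of a gene far above background and of one mostly below it.

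Markers of other lineages were mostly at background, with a few exceptions that are named here. Of 19 epithelial markers, 6 (31.6%) were above background on all 3 arrays and 12 (63.2%) on none, beside 48.8% and 38.2% of all genes. KRT18, a keratin of simple epithelia, had 2382, 3670.2 and 3544 (11.62 ± 0.35) and its partner KRT8 119, 155 and 155 (7.15 ± 0.22), both on probe sets with the cross-hybridization mark. OCLN (6.97 ± 0.53), KRT7 (6.56 ± 0.69), CLDN4 (6.43 ± 0.45) and ELF3 (6.18 ± 0.76) were the others. The defining epithelial genes EPCAM, CDH1, ESRP1, GRHL2 and KRT19 were at background.

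Of 21 blood cell markers, CD22 (75.2, 64 and 56.5) was the only one above background on all 3 arrays, on 1 of 4 probe sets. On none were 18 (85.7%), beside 38.2% of all genes. PTPRC, the pan-leukocyte marker, had 57.8, 74.6 and 107, above the limit on 2 arrays and just under it on the full-length series array. Of 15 endothelial markers, PECAM1 had 127, 106 and 122, on 1 of 5 probe sets, and 14 including CDH5, VWF and TIE1 were at background. Of 23 muscle markers 18 were on none of the arrays, among them MYOD1, MYOG and DES, while TNNT1 (6.37 ± 0.18) and MYL4 (6.12 ± 0.37) were above background.

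None of 22 liver and gut markers, 13 pluripotency and germ line markers and 22 central nervous system and retina markers was above background on all 3 arrays. In these groups 16 (72.7%), 11 (84.6%) and 21 (95.5%) genes were on none, beside 38.2% of all genes. The silent genes include ALB, AFP and CDX2 of liver and gut, NANOG, SOX2 and LIN28A of pluripotent cells, and PAX6, OTX1, EN1 and OLIG1 of the brain. OTX2 was the brain and retina marker that passed a limit, with 40.5 on the truncated series array. By the rule used, 5% of the receptor genes pass the limit of each array by construction, and 12 of those 100 genes passed it on at least 1 array.

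HOX genes, which set position along the body axis, were read for 28 members. Of these, 8 (28.6%) were above background on all 3 arrays, 6 on 1 or 2 and 14 on none. The shares of all genes were 48.8% on all 3 arrays and 38.2% on none. HOX genes were thus above background less often than genes in general. HOXC6 had signals of 292, 358 and 393 (8.43 ± 0.22), HOXB2 290.4, 255 and 428 (8.31 ± 0.39), HOXB3 260.0, 264 and 241 (7.99 ± 0.07) and HOXD8 178, 202 and 163 (7.50 ± 0.15). HOXC4 (6.82 ± 0.30), HOXD9 (6.24 ± 0.24), HOXC9 (6.13 ± 0.14) and HOXC10 (5.97 ± 0.40) completed the set. The most posterior genes measured, HOXB13, HOXC13, HOXD12 and HOXD13, were at background, as were HOXC11 and HOXC12. Of the HOXA cluster only HOXA2 was measured, at background.

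**Figure D4:**
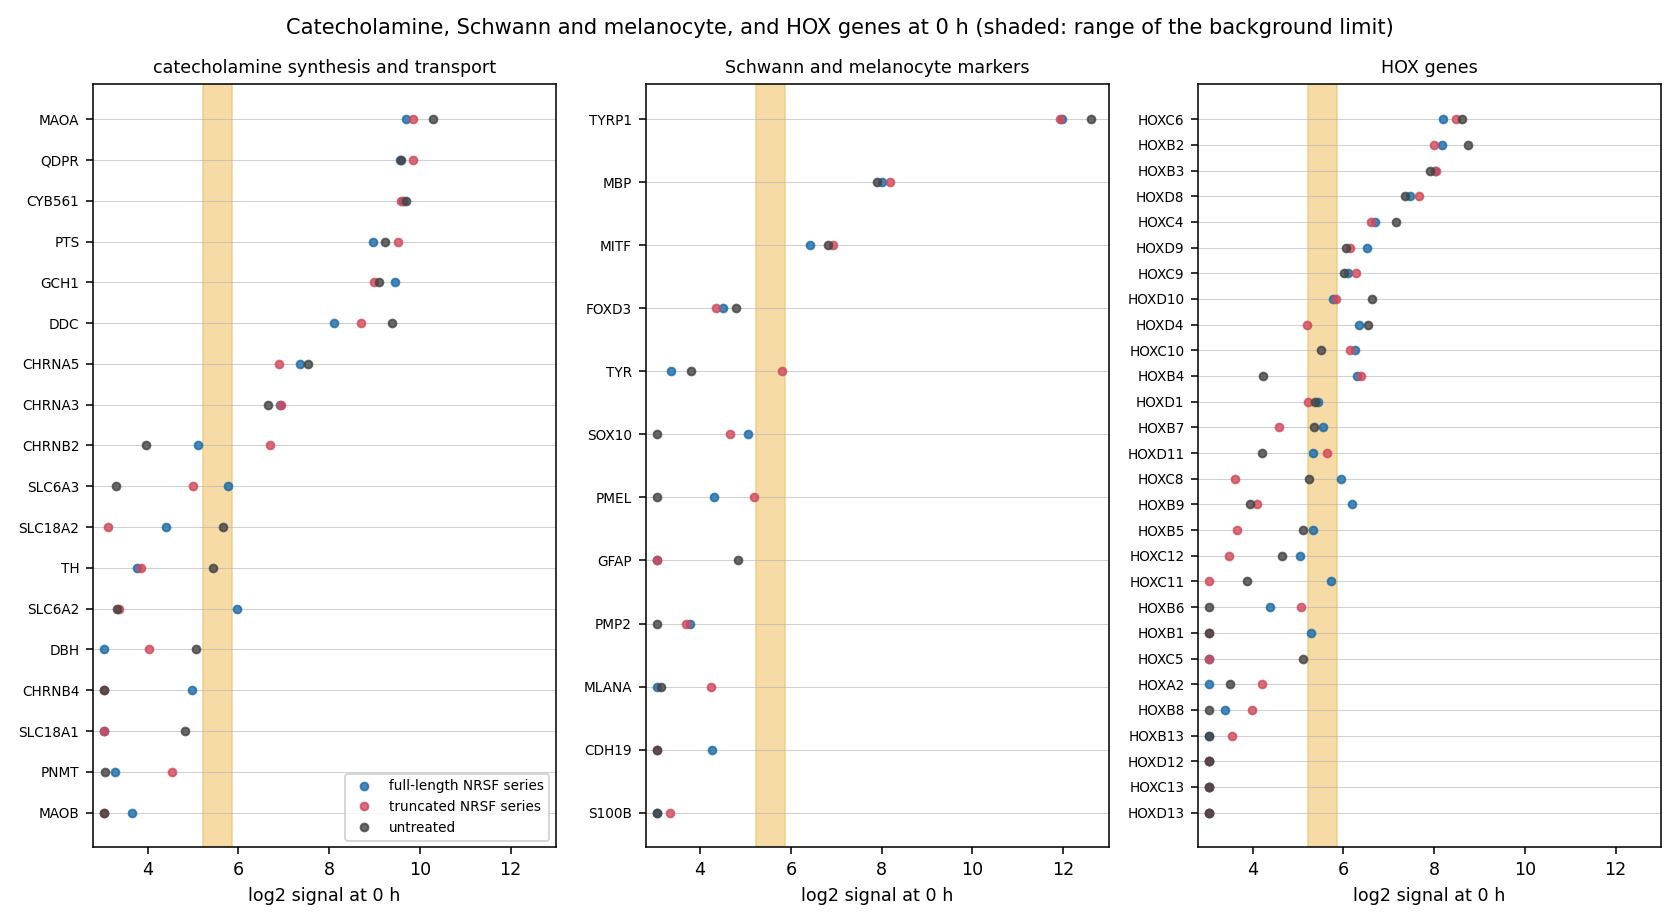
Log2 signal on each of the 3 arrays at 0 h (colours) of catecholamine genes (left), Schwann and melanocyte markers (middle) and HOX genes (right), with the range of the background limit shaded. TYRP1, MAOA and HOXC6 lie at the top of their panels, and TH, DBH, SOX10, HOXB13, HOXC13, HOXD12 and HOXD13 lie in or below the shaded range.

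The 3 arrays at 0 h were close for bright genes and loose for dim ones. The median SD was 0.21 log2 for genes above background on all 3 arrays and 0.14 for the 500 brightest, but 0.78 for genes above on 1 or 2 and 0.68 for genes above on none. Among the 9656 genes above background throughout, 555 (5.75%) had a range of 2-fold or more. Taken in pairs, 258 of these genes (2.67%) differed 2-fold or more between the full-length and truncated series arrays, 240 (2.49%) between the full-length series and untreated arrays and 205 (2.12%) between the truncated series and untreated arrays. With 1 array on each side these differences have no replicate check.

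Among the members of the groups above, VIP was one of the 12 genes with the largest range of all that were above background throughout. The largest was LINC01210, a noncoding RNA gene, with 367, 72.7 and 72, high on the full-length series array only. ORC3, a subunit of the origin recognition complex, had 119, 529 and 298, and PRKACA, the catalytic subunit of protein kinase A, 241, 59.1 and 173; one was lowest and the other highest on the full-length series array. TLE5, a Groucho-family corepressor gene, had 137, 508 and 447 and RARRES2, the chemerin gene, 209, 357 and 93. MANSC1 had 263, 140.1 and 52.8, on a probe set with the cross-hybridization mark.

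Each array also had genes of its own at 2-fold or more from the nearer of the other 2 among genes above background on at least 1 array. These were 259 higher and 394 lower on the full-length series array, 222 and 313 on the truncated series array, and 212 and 310 on the untreated array, so the full-length series array had the most in both directions. The widest gaps of each array ended at or near the floor, and those that ended at it are lower bounds. POM121L12 had 164, 13 and 11, IDNK 5.19, 87.2 and 87.1, DAGLA 7.25, 79.3 and 8.37, CGAS 130.0, 2.43 and 87.6 and CATSPERZ 8.23, 2.98 and 86.9. Control probe sets at the 3' end of ACTB were 4.19, 2.25 and 2.72 times as bright as those at its 5' end. On the same 3 arrays those of GAPDH were 1.40, 1.21 and 1.07 times as bright. Both ratios rise as RNA quality falls, and both were highest on the full-length series array. The part of RNA quality in the differences was not tested.

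A comparison with the 6 arrays at 24 and 48 h shows which members of the starting profile changed. The mean of the later arrays was set against 0 h with limma, with the series as a block (two-sided, Benjamini-Hochberg adjusted p under 0.05). Of 13799 genes kept by a filter on low signals, 7.81% (1078) were higher and 7.34% (1013) lower later, 15.2% in all. These p-values reflect no more than the spread among the arrays, which may be technical, and the counts move with the arrays used: they were 383 and 302 without the full-length series, 657 and 608 without the untreated series, and 613 lower without the truncated series. Without a mean-variance trend they were 246 and 161. All 3 series share the time course, so handling and culture time cannot be told apart from each other. Both construct series are part of the mean of the later arrays, which thus mixes cells given a construct with untreated cells.

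Of the 500 genes brightest at 0 h, 25 rose and 59 fell, beside 7.81% and 7.34% of all 13799 genes tested. A choice by brightness at 0 h itself favours falls. Among them LGR5, a receptor for R-spondins and a stem cell marker, had signals of 2804, 2699 and 2812 at 0 h and fell by 1.88 ± 0.12 log2 (SE, limma adjusted p = 8.5e-08), in 3 of 3 series. ADD3, a membrane skeleton gene, fell by 1.30 ± 0.12 (adjusted p = 4.4e-06) and SYNPO2, an actin-bundling gene, fell by 1.08 ± 0.14 (adjusted p = 0.00012), each in 3 of 3 series. PCOLCE, an enhancer of procollagen processing, fell by 1.01 ± 0.13, and the 10 largest falls also hold TCF4 and COL3A1 of the groups above. TOP2A, TMED4 and ANTXR1 were among the 10 as well, but their calls were lost without a variance trend (TOP2A, TMED4) or when each gene's probe sets were averaged (ANTXR1, TMED4). DOCK11, an exchange factor for small GTPases, fell by 0.90 ± 0.12 and completed that set. The largest rise was that of MRPL47, a mitochondrial ribosomal protein gene (0.89 ± 0.12), which lost its call when probe sets were averaged. EGR1, IER3, MMADHC, CEBPB, SLC20A1, KRT18, GNA13, DYNLL1 and SAP18 made up the rest of the 10 and rose by 0.56 to 0.85, and each lost its call under at least 1 alternative.

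Matrix genes bright at the start were among those lower later. Of 70 tested (78 measured), 24 (34.3%) fell and 7 (10.0%) rose, beside 7.34% and 7.81% of all genes tested. Their median change was -0.33, beside -0.03 over all genes. TGFBI, a matrix protein induced by TGF-beta, fell by 1.66 ± 0.15 (adjusted p = 2.2e-06), FN1 fell by 1.37 ± 0.14 (adjusted p = 8.9e-06) and COL3A1 fell by 1.03 ± 0.13 (adjusted p = 7.8e-05), all in 3 of 3 series. PLAU rose by 0.98 ± 0.13 (adjusted p = 0.00013). The falls were 14 and the rises 3 without the full-length series, and 8 and 1 without a variance trend. COL1A1 had a change of -0.62 ± 0.12 that lost its call without the full-length series (-0.46).

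Among secreted factors more rose than fell. Of 61 tested, 20 (32.8%) rose and 8 (13.1%) fell, beside 7.81% and 7.34% of all genes tested. Their median change was 0.21. IL24, a cytokine of the IL10 family that was at 6.72 at 0 h, rose by 4.50 ± 0.13 (adjusted p = 1.6e-12), CXCL8, a neutrophil chemokine, rose by 3.20 ± 0.17 (adjusted p = 9.7e-09) and IL11 rose by 2.38 ± 0.16 (adjusted p = 8.7e-08), all in 3 of 3 series. HGF, bright at the start, fell by 1.53 ± 0.18 (adjusted p = 4e-05). The count of falls was 4 without the full-length series, 5 without the truncated series and 2 without a variance trend. Of the bright factors at 0 h, CCL2 did not pass the test (-0.55 ± 0.19, adjusted p = 0.07), though it was called lower without the untreated series (-0.83).

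Of 31 mesenchymal and neural crest regulators tested, 10 (32.3%) rose and 4 (12.9%) fell, beside 7.81% and 7.34% of all genes tested. The rises were 4 without the full-length series and 6 without the 0 h array of the truncated series. Without a variance trend 2 rose and 1 fell. SNAI2 rose by 1.11 ± 0.13 (adjusted p = 2.9e-05) and TCF4 fell by 1.19 ± 0.13 (adjusted p = 1.4e-05), both in 3 of 3 series. Of 20 sympathoadrenal regulators, 1 rose and 3 fell: TBX3 rose by 0.50 ± 0.13, a call lost without the full-length series (0.57) or the truncated series (0.35), and SOX11 (fell by 1.63 ± 0.14, adjusted p = 2e-06), SOX4 and EYA1 fell. With probe sets averaged, SOX4 (-0.54) and EYA1 (-0.63) lost their calls, and without a variance trend the counts of this group were 0 and 2. GATA3 (-0.12 ± 0.12, adjusted p = 0.58) and PHOX2A (-0.43 ± 0.25, adjusted p = 0.29) did not pass the test. RET fell by 1.81 ± 0.21 (adjusted p = 3.1e-05) in 3 of 3 series, and EGFR (-0.09 ± 0.14, adjusted p = 0.72) did not pass.

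TYRP1 fell by 0.59 ± 0.14 (limma adjusted p = 0.0075) in 3 of 3 series, a call that was lost without the full-length series (-0.64) and without the untreated series (-0.45). CRH fell by 0.74 ± 0.20 (limma adjusted p = 0.021), but its change was 0.04 in the untreated series, and without the truncated series the change was -0.39 and no longer called. Of 17 granins and neuropeptides tested, 5 (29.4%) fell and 3 (17.6%) rose, beside 7.34% and 7.81% of all genes tested. Falls numbered 0 without the truncated series, 1 without the full-length series and 0 without a variance trend. REST rose by 0.88 ± 0.19 (limma adjusted p = 0.0044) in 3 of 3 series, a call lost with probe sets averaged (0.56) and without a variance trend. Of 18 HOX genes tested with limma, 0 were called in either direction, beside 15.2% of all genes tested. At an unadjusted p under 0.05, 3 were higher and 1 lower.

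**Figure D5:**
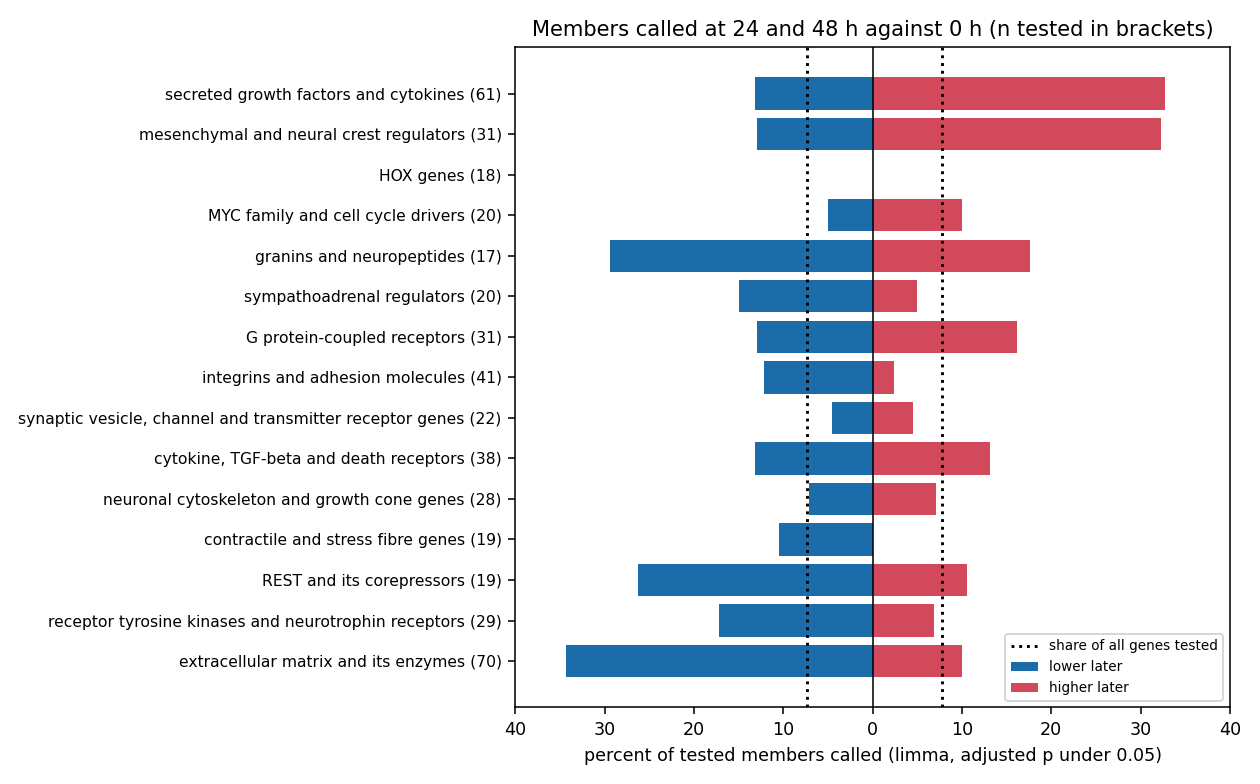
Percent of tested members of the gene groups with at least 15 tested members that were called lower (left bars) or higher (right bars) at 24 and 48 h against 0 h (limma, adjusted p under 0.05), with the number tested in brackets and the share of all 13799 genes as dotted lines (7.34% lower, 7.81% higher). The bar to the left is 34.3% for the matrix group, and the bar to the right is 32.8% for secreted factors.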

How the data were processed

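Total RNA was read on 9 arrays, 1 per series and time. The deposited values are linear signal intensities of 54675 probe sets, made by the authors with GCOS, per the submitters' processing notes (version and settings not given in the sources used here); their mean without the lowest and highest 2% is about the same on every array, so they are scaled. Per the labels, arrays were grouped by time and series. Signals were floored at the 25th percentile of all values (8.27) and log2 transformed. Of the probe sets, 41097 name 1 gene in GEO's platform annotation, with symbols updated through RefSeq (GRCh38.p14), 1801 name several and 11721 that are not controls are not listed there; only the first kind was used. Each of 19775 genes was read from its brightest probe set, by the mean of the 9 arrays. The background limit is described in the report.

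The later comparison used limma 3.58.1 in R 4.3.3 (time and series as factors, variance trend, 4 residual and 16.4 total degrees of freedom) on 13799 genes whose mean log2 signal passed 4.20, the 40th percentile of probe sets. On simulated data with 200 changed genes among 13799, 71% of changes of 1 log2 unit and 98% of changes of 2 were recovered. Of the calls on simulated data, 4.5% were false. The simulated noise was normal and independent between arrays, without differences in RNA quality. That share is therefore no estimate for the calls on the real data. The changed genes were drawn only from the brighter genes, so recovery among dim genes was not measured. Tables were made with Python 3.11.15, pandas 2.3.3 and numpy 2.4.6. Precision is limited by how few arrays there are.

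The 24 gene groups and all tests were chosen with earlier results of these data known. Named genes are the 25 brightest, group members, the 12 with the largest range over the 3 arrays, for each array the 6 furthest above and 6 furthest below the nearer other array, and the 10 largest falls and rises among the 500 brightest. Alternatives tried are given in the closing section.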

Additional observations from a re-analysis of the deposited data

Results flagged for a closer look

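Probe sets that name no single gene were left out of the profile, yet many carried signal: 2565 of 13522 (19.0%) were above the background limit on 3 of 3 arrays at 0 h. They were picked out because they lie outside the measurement used. Of those that name several genes 852 of 1801 (47.3%) were above it, and of those not in the annotation 1713 of 11721 (14.6%), beside 16763 of 41091 probe sets with 1 gene (40.8%).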

How the results depend on the processing

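No paired analysis was possible because the labels give no replicate numbers; the later comparison was blocked by series instead, and without that block 978 genes were higher and 912 lower. The count of genes above background (9656) kept within 1.5 times under each alternative tried, and that of genes at background (7563) under each but a limit at the 40th percentile of all probe sets, where it was 2614. Pairs of 0 h arrays differed 2-fold in 2052 (full-length and truncated series), 2052 (full-length series and untreated) and 1817 genes (truncated series and untreated) among the 13799 genes kept by the filter; these counts were 1202, 1224 and 871 with the floor at the 40th percentile, and 258, 240 and 205 among genes above background on all 3 arrays. Later against 0 h, 1078 genes were higher and 1013 lower; the counts were 609 and 489 with no filter, 608 and 489 with each gene's probe sets averaged, 246 and 161 with no variance trend, 383 and 302 without the full-length series, 657 and 608 without the untreated series, and 613 lower without the truncated series. Leaving out 1 array at 0 h gave 523 to 781 higher and 440 to 712 lower. Of 62 called genes tracked, 41 kept their call in every setting that leaves out arrays and 21 in every setting, and none of them changed sign. EGFR, which was not called, went from -0.09 to 0.22 with probe sets averaged, to 0.011 without the truncated series and to between -0.20 and 0.011 without 1 array at 0 h. With probe sets averaged, 10 of 22 sympathoadrenal and 21 of 34 mesenchymal regulators, 32 of 66 secreted factors and 49 of 78 matrix genes were above background on all 3 arrays; with the limit at the 40th percentile these were 19, 27, 50 and 66. Levels of named genes moved by up to 5.76 log2 with the averaging, by at most 0.09 with quantile normalization and by at most 0.69 without 1 array at 0 h. Dim genes are limited by the background: below the limits an order among genes has no meaning.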

Other observations

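Several bright genes at 0 h belong to none of the groups described; they were named after their values were seen. FOLR1, the folate receptor gene, had signals of 9039.6, 3313 and 2677, on 1 of 2 probe sets, with the full-length series array the highest. The complement gene C3 had 4592, 4197 and 4529 (12.11 ± 0.07) and PTX3, a soluble pattern recognition protein gene, 6408, 5451 and 5087 (12.46 ± 0.17). IFI16, a sensor of DNA, had 7287, 7031 and 6732 on a probe set with the cross-hybridization mark, and CYP1B1, a cytochrome of the aryl hydrocarbon response, had 2132, 2311 and 2913.

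Also named after their values were seen are 3 cancer-testis genes, which normal tissues express mainly in germ cells. PRAME had signals of 1568, 2083 and 1830.4 (10.83 ± 0.21). MAGEA6 had 4481, 3930.2 and 3665 and CTAG2 2559, 3172 and 2365, both on probe sets with the cross-hybridization mark, so these 2 cannot be told from their near-identical relatives.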
